A study of Mus musculus with 4 samples.

Results

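Regulatory T cells (Tregs) of 4 mouse tumor libraries were picked out by 1 rule on raw counts of unique molecular identifiers (UMIs, each standing for 1 captured mRNA molecule). A Treg had at least 1 UMI of Foxp3, at least 1 UMI over Cd3d, Cd3e and Cd3g, no UMI of Cd8a or Cd8b1, and at most 2 UMIs over C1qa, C1qb and C1qc. The barcode also had to hold at least 300 genes and 500 UMIs, with at most 20% mitochondrial UMIs. The rule found 311 Tregs among 56088 kept barcodes, of which 5486 passed the same CD3 and C1q limits whatever their Foxp3 and CD8 counts (T-gated barcodes).

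The tumors were B16F10 melanoma taken 14 days after the cells were injected and MC38 colon adenocarcinoma taken after 26 days, grown in mice that lack Lrrc25 throughout the body (Lrrc25-/-) or in wild-type mice (WT), with no further treatment. Each of the 4 libraries was a single pool of 3 mice, to which every mouse gave a 100 mm3 piece of tumor, and CD45+ cells taken with magnetic beads were combined 5 to 1 with unsorted suspension. The Lrrc25-/- B16F10 pool gave 88 Tregs of 12299 kept barcodes, the WT B16F10 pool 51 of 9799, the Lrrc25-/- MC38 pool 122 of 16704 and the WT MC38 pool 50 of 17286. With 1 pool per genotype and tumor model there is no replicate within a model, so values there describe pools, intervals cover counting error only, and no p-value is given.

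Tregs are a branch of CD4 T cells that holds back other immune cells. The transcription factor Foxp3 sets their program, and they take up interleukin 2 through a high-affinity receptor whose alpha chain is Il2ra. They use Ctla4 to lower costimulation on antigen-presenting cells. In mouse tumors they are known to gather as activated cells that carry receptors of the tumor necrosis factor family, and their loss or blockade is known to free CD8 T cells. The study centred on macrophages and CD8 T cells; Lrrc25 is a leucine-rich repeat membrane protein of myeloid cells.

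The Treg pools held 639685, 540011, 549982 and 269678 UMIs in the Lrrc25-/- B16F10, WT B16F10, Lrrc25-/- MC38 and WT MC38 libraries in that order. The median Treg had 5528, 8777, 3725 and 4326 UMIs. As a check of the genotype labels, macrophage-gated barcodes (at least 10 C1q UMIs and none of CD3) had Lrrc25 at 4.63 UMIs per 1000000 UMIs of the class (CPM) in the Lrrc25-/- B16F10 pool against 141 CPM in the WT B16F10 pool, and at 1.98 CPM in the Lrrc25-/- MC38 pool against 90.1 CPM in the WT MC38 pool. Tregs themselves held 0 Lrrc25 UMIs in both Lrrc25-/- pools, against 8 UMIs in 6 cells of the WT B16F10 pool and 1 UMI in the WT MC38 pool. Between 96 and 247 barcodes were shared by each pair of libraries. The rule removes no doublets, and Scrublet scores marked 5, 1, 2 and 3 Tregs. Xist, the RNA that silences an X chromosome in female cells, was at 1007 and 753 CPM in Lrrc25-/- and WT MC38 Tregs and at 0 in both B16F10 pools, so the hosts of the models differed in sex as well as in day.

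The markers that the rule did not use went with the label. Foxp3 (ENSMUSG00000039521; mm10 chromosome X, 7573644 to 7595245, plus strand), which chose the cells, stood at 219, 152, 447 and 308 CPM in Tregs of the Lrrc25-/- B16F10, WT B16F10, Lrrc25-/- MC38 and WT MC38 pools in that order. At least 1 UMI of Il2ra, Ctla4 or Ikzf2 was present in 100%, 94.1%, 98.4% and 98.0% of Tregs, against 54.1%, 79.7%, 81.7% and 89.9% of conventional CD4 T cells, defined as T-gated barcodes with Cd4 and without Foxp3 or CD8 UMIs. These are shares at unequal depth, since the median conventional cell had 2562, 5952, 3012 and 2734 UMIs. A Cd4 UMI was seen in 52.3%, 49.0%, 59.8% and 44.0% of Tregs, which the rule did not require.

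Levels of all 3 free markers were higher in Tregs than in conventional CD4 T cells in every library. Il2ra (ENSMUSG00000026770; chromosome 2, 11642807 to 11693193, plus strand), the interleukin 2 receptor alpha chain, measured 199, 106, 924 and 534 CPM in Tregs, against 52.6, 50.2, 216 and 312 CPM in conventional cells, in the same order of pools. Ctla4 (ENSMUSG00000026011; chromosome 1, 60887000 to 60915832, plus strand) measured 996, 639, 1385 and 1739 CPM in Tregs, against 405, 309, 573 and 650 CPM in conventional cells. Ikzf2 (ENSMUSG00000025997; chromosome 1, 69531214 to 69687245, minus strand), which encodes the transcription factor Helios, measured 716, 411, 2284 and 2573 CPM in Tregs, against 265, 123, 529 and 948 CPM in conventional cells. Paired over the 4 libraries, the log2 fold changes were 1.46 ± 0.222 for Il2ra, 1.22 ± 0.134 for Ctla4 and 1.64 ± 0.149 for Ikzf2 (± SE), with adjusted p of 0.00181, 0.000209 and 5.15e-05 in edgeR's quasi-likelihood test. Here and below the SE was worked back from that test, as described under the processing.

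**Figure D1:**
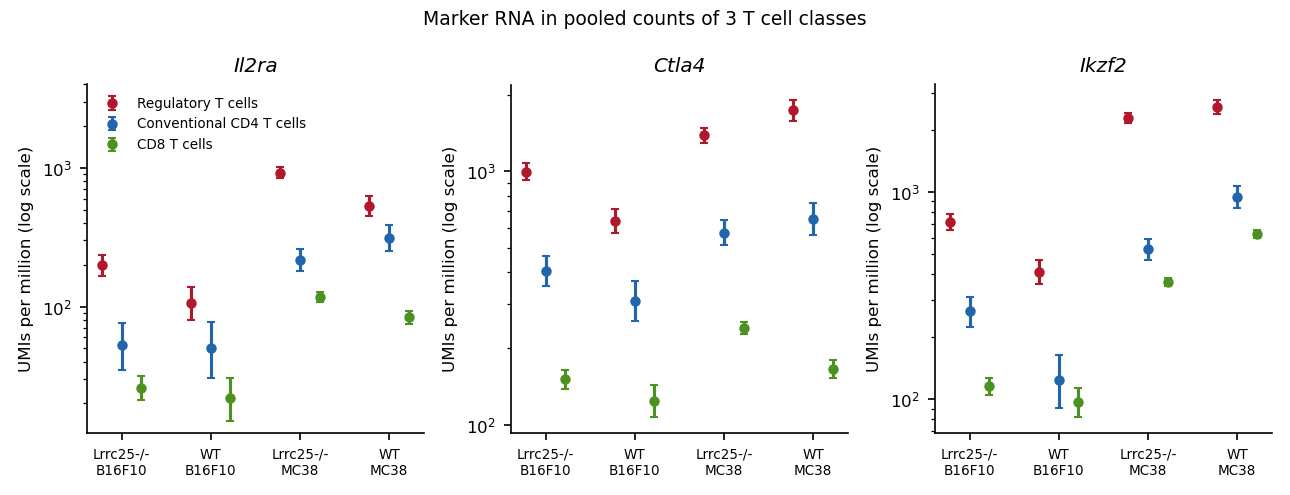
Levels of Il2ra, Ctla4 and Ikzf2 in UMIs per 1000000 on a logarithmic y axis, for the 4 libraries on the x axis, with bars for the 95% Poisson interval of the summed counts. In each library Tregs (red) lie above conventional CD4 T cells (blue), and these above CD8 T cells (green).

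Around the threshold, 54, 34, 52 and 25 Tregs of the Lrrc25-/- B16F10, WT B16F10, Lrrc25-/- MC38 and WT MC38 pools held a single Foxp3 UMI, and 34, 17, 70 and 25 held 2 or more. Ikzf2 stood at 765, 351, 2000 and 2027 CPM in the cells with 1 Foxp3 UMI and at 641, 509, 2440 and 3106 CPM in those with more. Just outside the rule were 17, 9, 7 and 5 barcodes with 1 CD8 UMI, in which Ikzf2 was at 488, 318, 3188 and 1949 CPM. A further 12, 10, 15 and 17 barcodes had Foxp3 but no CD3 UMI, and there Ctla4 was at 27.6, 0, 90.2 and 139 CPM, far under the Treg pools. With 3 C1q UMIs in place of at most 2 there were 11, 7, 8 and 0 further barcodes. The C1q limit as a whole left out 34, 51, 34 and 10 barcodes that met the other terms of the rule. In the WT B16F10 pool it thus left out 51 and kept 51. The barcodes left out had Ctla4 at 599, 279, 771 and 412 CPM and the macrophage marker Lyz2 at 2408, 2132, 1994 and 1435 CPM. How many of them are Tregs was not tested.

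Foxp3 UMIs also appeared in cell types that should lack the gene. In macrophage-gated barcodes 0.230%, 0.267%, 0.364% and 0.149% held one, at median depths of 9910, 8778, 6978 and 5232 UMIs, in the same order of pools. Among CD8-gated T cells without Cd4 the share was 4.28% (95% interval 2.92 to 6.01), 10.2% (6.74 to 14.5), 1.62% (0.909 to 2.66) and 2.29% (1.29 to 3.75), at median depths of 3087, 4844, 4301 and 4635 UMIs. Among CD8-negative T-gated barcodes it was 9.28%, 11.3%, 13.5% and 10.5%, at median depths of 2236, 4185, 2869 and 2642 UMIs. The WT B16F10 pool stands apart, since its CD8-negative share of 11.3% is close to the 10.2% in its CD8 gate, and Foxp3 stood at 21.1 and 19.3 CPM in those gates. How many of its 51 members are Tregs is therefore less certain than in the other pools, and every B16F10 comparison of genotypes rests on that pool. In the other 3 pools Foxp3 was at 30.9, 58.1 and 31.7 CPM in the CD8-negative gate, against 11.9, 6.31 and 5.94 CPM in the CD8 gate. The CD8-gated barcodes with Foxp3 were deep, with medians of 10456, 11275, 6986 and 5304 UMIs, and had Il2ra at 134, 80.3, 711 and 491 CPM, against 26.0, 21.8, 117 and 83.4 CPM in CD8-gated cells without it.

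Treg shares were set against each other to ask whether host Lrrc25 loss went with more or fewer of these cells. In MC38, Tregs were 6.56% (5.47 to 7.78) of T-gated barcodes in the Lrrc25-/- pool against 4.33% (3.23 to 5.67) in the WT pool, a ratio of 1.51 (1.08 to 2.15). In B16F10 they were 5.10% (4.11 to 6.25) in the Lrrc25-/- pool against 6.84% (5.13 to 8.89) in the WT pool, a ratio of 0.746 (0.523 to 1.08) whose interval includes 1. As a share of CD8-negative T cells the ratios were 1.28 (0.912 to 1.81) in MC38 and 0.821 (0.575 to 1.18) in B16F10. As a share of all kept barcodes they were 2.53 (1.80 to 3.58) and 1.37 (0.963 to 1.98).

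The direction of the B16F10 ratio turned with depth and with the C1q limit, settings that left few WT Tregs. When every barcode was first thinned to 1000 UMIs, the rule found 29, 9, 54 and 17 Tregs in the Lrrc25-/- B16F10, WT B16F10, Lrrc25-/- MC38 and WT MC38 pools, and the share of T-gated barcodes had a ratio of 1.43 (0.659 to 3.44) in B16F10, and in MC38 one of 1.88 (1.07 to 3.45). With no C1q UMI allowed, the B16F10 ratio was 1.78, from 42 Lrrc25-/- and only 8 WT Tregs. The MC38 ratio was above 1 under all 3 denominators and under both of these changes, whereas the B16F10 pools gave no direction that held for T-gated barcodes. The median kept barcode of B16F10 held 5520 UMIs in the Lrrc25-/- pool against 9906 in the WT pool.

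The cycling share of Tregs was lower in the Lrrc25-/- pool of both models. A cell was called cycling when it held at least 3 UMIs over 10 proliferation genes. In B16F10 this was 34.1% (24.3 to 45.0) of Lrrc25-/- Tregs against 56.9% (42.2 to 70.7) of WT Tregs, a ratio of 0.600 (0.348 to 1.04). In MC38 it was 18.0% (11.7 to 26.0) of Lrrc25-/- Tregs against 44.0% (30 to 58.7) of WT Tregs, a ratio of 0.410 (0.216 to 0.776). After thinning each Treg to 1000 UMIs, which left out 3 shallower Tregs of the Lrrc25-/- MC38 pool and 1 of the WT MC38 pool, and counting a cell as cycling from 1 UMI on, the ratios were 0.719 (0.411 to 1.27) and 0.543 (0.301 to 0.991), so the interval stayed under 1 in MC38 and included 1 in B16F10.

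The same order of genotypes was seen in the other T cell classes. Thinned conventional CD4 T cells were cycling in 23.1% of Lrrc25-/- and 37.5% of WT cells of B16F10 and in 12.5% of Lrrc25-/- and 29.0% of WT cells of MC38. Thinned CD8 T cells were cycling in 22.6% of Lrrc25-/- and 25.9% of WT cells of B16F10 and in 23% of Lrrc25-/- and 35.4% of WT cells of MC38. The lower share is therefore not shown to be particular to Tregs. Thinning kept 117 of 122, 56 of 59, 120 of 120 and 69 of 69 conventional cells and 664 of 694, 224 of 230, 896 of 911 and 633 of 640 CD8 T cells of the Lrrc25-/- B16F10, WT B16F10, Lrrc25-/- MC38 and WT MC38 pools. Thinned Tregs had the highest share of the 3 classes in every library, although 24.4% (17.0 to 33.1) of Tregs and 23% of CD8 T cells in the Lrrc25-/- MC38 pool differ by less than counting error.

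**Figure D2:**
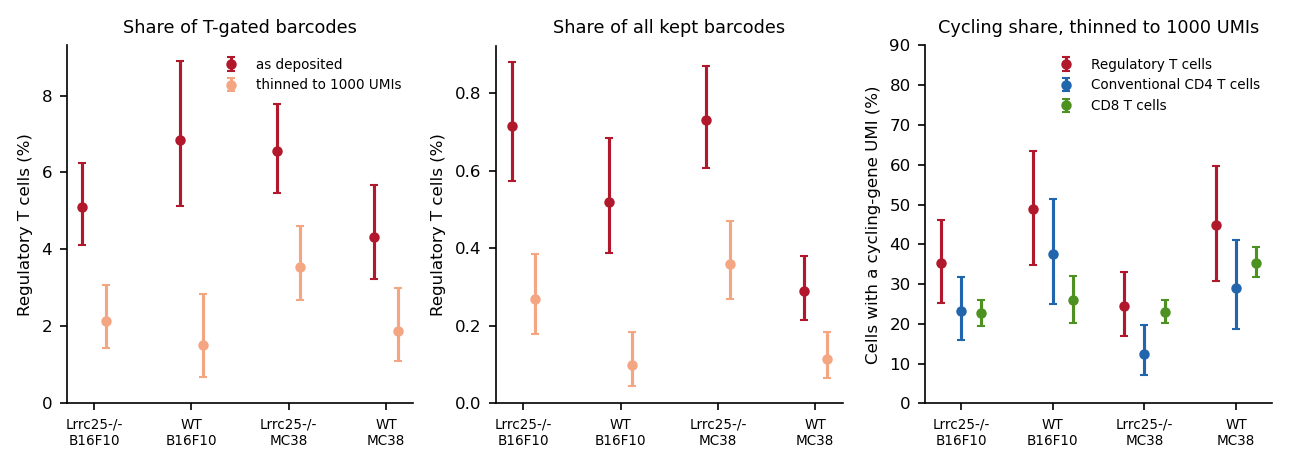
Left and middle, Tregs as a percentage of T-gated and of all kept barcodes in each library, with all UMIs (red) and after thinning to 1000 UMIs (light red). Right, the percentage of thinned cells with a UMI of the proliferation genes in 3 T cell classes; bars are 95% exact binomial intervals. The order of the B16F10 pools by share of T-gated barcodes changes with thinning, and in all 3 classes the cycling share is lower in the Lrrc25-/- pool than in the WT pool of each model.

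Tregs were next compared with conventional CD4 T cells of the same libraries, which shows what the Foxp3 gate brought along. Of 7209 genes tested, 80 were higher in Tregs (1.11%) and 187 lower (2.59%) at an adjusted p under 0.05. Receptors of activated Tregs were prominent among the higher genes, and cytokines of helper T cells and genes of resting T cells among the lower ones. Of 14 genes listed for Treg identity, 7 were higher and 1 lower, with a median log2 fold change of 1.00. Of 19 genes listed for effector Tregs, 7 were higher and 1 lower, with a median of 0.60, beside a median of 0.01 over all genes tested.

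Among costimulatory receptors of the tumor necrosis factor family, Tnfrsf9 (4-1BB) measured 1146, 546, 1544 and 990 CPM in Tregs of the Lrrc25-/- B16F10, WT B16F10, Lrrc25-/- MC38 and WT MC38 pools, against 383, 394, 456 and 574 CPM in conventional cells (log2 1.12, SE 0.195, adjusted p = 0.00408, edgeR). Tnfrsf4 (OX40) measured 910, 594, 1587 and 990 CPM in Tregs, against 364, 435, 471 and 516 CPM (log2 1.08, SE 0.186, adjusted p = 0.00363, edgeR). Tnfrsf18 (GITR) measured 536, 378, 858 and 679 CPM in Tregs, against 276, 334, 320 and 360 CPM (log2 0.83, SE 0.188, adjusted p = 0.0202, edgeR). All 3 receptors were above the conventional cells in every library. Icos, a costimulator of the CD28 family, was likewise higher in each, at 603, 491, 1193 and 1146 CPM in Tregs, against 419, 379, 484 and 530 CPM (log2 0.79, adjusted p = 0.0163, edgeR). The costimulation list had 5 of 11 genes higher and 1 lower (median 0.51), whereas the inhibitory receptor list had 1 of 11 higher and none lower (median -0.01); Pdcd1 and Lag3 gave log2 values of -0.14 and 0.20 and adjusted p of 0.892 and 0.888.

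Genes of tissue and effector Tregs formed a further group. Klrg1, a receptor for cadherins found on terminally activated lymphocytes, measured 134, 53.7, 431 and 389 CPM in Tregs, against 30, 27.6, 58.2 and 149 CPM in conventional cells (log2 1.94, SE 0.267, adjusted p = 0.000983, edgeR). Il1rl1, the interleukin 33 receptor ST2, measured 61.0, 20.4, 195 and 200 CPM in Tregs, against 15.0, 10, 87.3 and 58.1 CPM (log2 1.45, adjusted p = 0.00286, edgeR). Itgb8, an integrin chain that releases active transforming growth factor beta, measured 28.1, 13.0, 173 and 185 CPM in Tregs, against 7.51, 0, 43.6 and 87.2 CPM (log2 1.66, adjusted p = 0.00473, edgeR). These 3 genes were higher in Tregs of every library. Itgae (CD103, which binds E-cadherin) was called too, with a log2 of 1.75 and an adjusted p of 0.00389, but its level ran at 50, 51.9, 209 and 18.5 CPM in Tregs, against 20.6, 12.6, 41.8 and 14.5 CPM, so the Lrrc25-/- MC38 pool stood apart. Izumo1r, the folate receptor family member FR4, had a log2 of 1.00, and the transcription factor Batf one of 0.75, both with an adjusted p of 0.0479.

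Suppressive molecules were less uniform. Of 15 listed, 3 were higher, none lower, at a median of 0.49. Gzmb, the cytotoxic protease granzyme B, measured 677, 380, 627 and 486 CPM in Tregs, against 259, 319, 142 and 287 CPM in conventional cells (log2 1.09, adjusted p = 0.0173, edgeR). The threshold was missed by Lrrc32 (GARP, which holds latent transforming growth factor beta on the surface), with a log2 of 1.54 ± 0.432 (SE) and an adjusted p of 0.0645, and by Entpd1 (CD39), with 0.86 ± 0.246 and 0.0693. Il10 was at 53.2, 18.5, 67.3 and 22.2 CPM in Tregs, against 50.7, 40.2, 10.9 and 21.8 CPM, and its level overlapped between the classes. Ccr8, a chemokine receptor that marks tumor Tregs, was thin in this assay, at 15.6, 11.1, 43.6 and 26.0 CPM in Tregs, against 3.75, 2.51, 14.5 and 10.9 CPM (log2 1.60, SE 0.466, adjusted p = 0.0741).

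The lower genes were those of helper and resting T cells. Of 14 chemokine and cytokine genes, 6 were lower in Tregs and none higher, with a median of -1.20. Tnfsf8 (CD30 ligand) measured 14.1, 3.70, 67.3 and 0 CPM in Tregs of the Lrrc25-/- B16F10, WT B16F10, Lrrc25-/- MC38 and WT MC38 pools, against 67.6, 70.3, 607 and 425 CPM in conventional cells (log2 -3.60, SE 0.393, adjusted p = 0.000209, edgeR). Ifng measured 37.5, 7.41, 5.45 and 0 CPM in Tregs, against 118, 208, 96.4 and 153 CPM (log2 -3.34, adjusted p = 0.000687, edgeR). Cd40lg, the CD40 ligand by which helper cells license other immune cells, measured 3.13, 9.26, 10.9 and 7.42 CPM in Tregs, against 46.9, 10, 127 and 58.1 CPM (log2 -2.92, adjusted p = 0.00179, edgeR). The 4 Treg values of Tnfsf8 and of Ifng all lay under the 4 values of conventional cells, and Il2 was listed at 0 in all 4 Treg pools. Tcf7, the TCF1 factor of naive and memory T cells, measured 12.5, 11.1, 1.82 and 7.42 CPM in Tregs, against 118, 32.7, 115 and 47.2 CPM (log2 -3.27, adjusted p = 0.000687, edgeR), and Bach2 gave a log2 of -1.77 at the same adjusted p. The ganglioside synthase gene St8sia1 had 0 UMIs in Tregs of all 4 libraries and 79 in conventional cells, at least 30-fold lower against a floor of 3 counts over the group.

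Some changes ran against the usual Treg label. Nrp1, often used as a marker of thymus-derived Tregs, was lower, at 18.8, 13.0, 25.5 and 51.9 CPM in Tregs, against 58.2, 40.2, 98.2 and 98.1 CPM in conventional cells (log2 -1.58, SE 0.265, adjusted p = 0.00321, edgeR). Cxcr6, a receptor of tissue-resident T cells, was lower too, at 90.7, 51.9, 70.9 and 26.0 CPM in Tregs, against 225, 183, 113 and 171 CPM (log2 -1.51, adjusted p = 0.00278, edgeR). Macrophage and dendritic markers moved with these lower genes. The 13 macrophage markers summed to 845 to 2443 CPM in Tregs against 977 to 5546 CPM in conventional cells, with 6 of 12 tested called lower, and the 11 dendritic markers summed to 2102 to 5465 CPM against 1966 to 12290 CPM, with 4 of 8 called lower. Adgre1 was at 0 in the conventional cells of the WT MC38 pool and no macrophage marker was at 0 in a Treg pool; the part of such RNA in Nrp1 and the other lower genes was not tested. A conventional cell is one in which Foxp3 was not detected, so this class may hold Tregs whose Foxp3 was missed.

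Other gene groups filled in the picture of the Treg pools. Of 18 proliferation genes 5 were higher in Tregs and none lower (median 0.70), including Pclaf, a partner of the replication clamp, at a log2 of 0.85 and an adjusted p of 0.00817 in edgeR. All 5 of these calls (Hmgb2, Mcm3, Pclaf, Stmn1 and Ube2c) were lost without the Lrrc25-/- B16F10 pool, and likewise with no C1q UMI allowed. Of 13 heat shock genes 4 were lower, namely Dnajb1, Hspa1a, Hspa1b and Hsph1, and none higher (median -0.35). Of 17 early genes of T cell receptor signalling 3 were lower, namely Dusp2, Jun and Nr4a2, and none higher (median -0.43). The death regulator Bcl2 was lower by a log2 of -2.24 (adjusted p = 0.00326), and among 13 genes of the interferon gamma response 3 were higher, Gbp3 with a log2 of 1.33 (adjusted p = 0.00303), and 1 lower. None of 16 glycolysis, 14 oxidative phosphorylation, 14 lipid or 13 class I antigen presentation genes was called in either direction. Further higher genes outside the lists included Frmd5 (10.9, 7.41, 631 and 360 CPM in Tregs, against 9.38, 0, 89.1 and 113 CPM) and Bmyc, a relative of Myc (155, 115, 135 and 115 CPM in Tregs, against 33.8, 42.7, 34.5 and 47.2 CPM; adjusted p = 0.000687).

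Several of these calls depended on single pools. Without the Lrrc25-/- MC38 pool 124 genes were called in place of 267, and calls for Tnfrsf18, Icos, Itgae, Itgb8, Gzmb, Batf, Izumo1r, Cd40lg and Bcl2 among others were lost, while those for Il2ra, Ctla4, Ikzf2, Klrg1, Tnfrsf9, Tnfrsf4, Nrp1, Tcf7 and Tnfsf8 held. Without the Lrrc25-/- B16F10 pool 155 genes were called, and Tnfrsf18, Batf, Gzmb and Pclaf lost their call; without the WT MC38 pool Tnfrsf18, Icos, Batf and Izumo1r did.

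**Figure D3:**
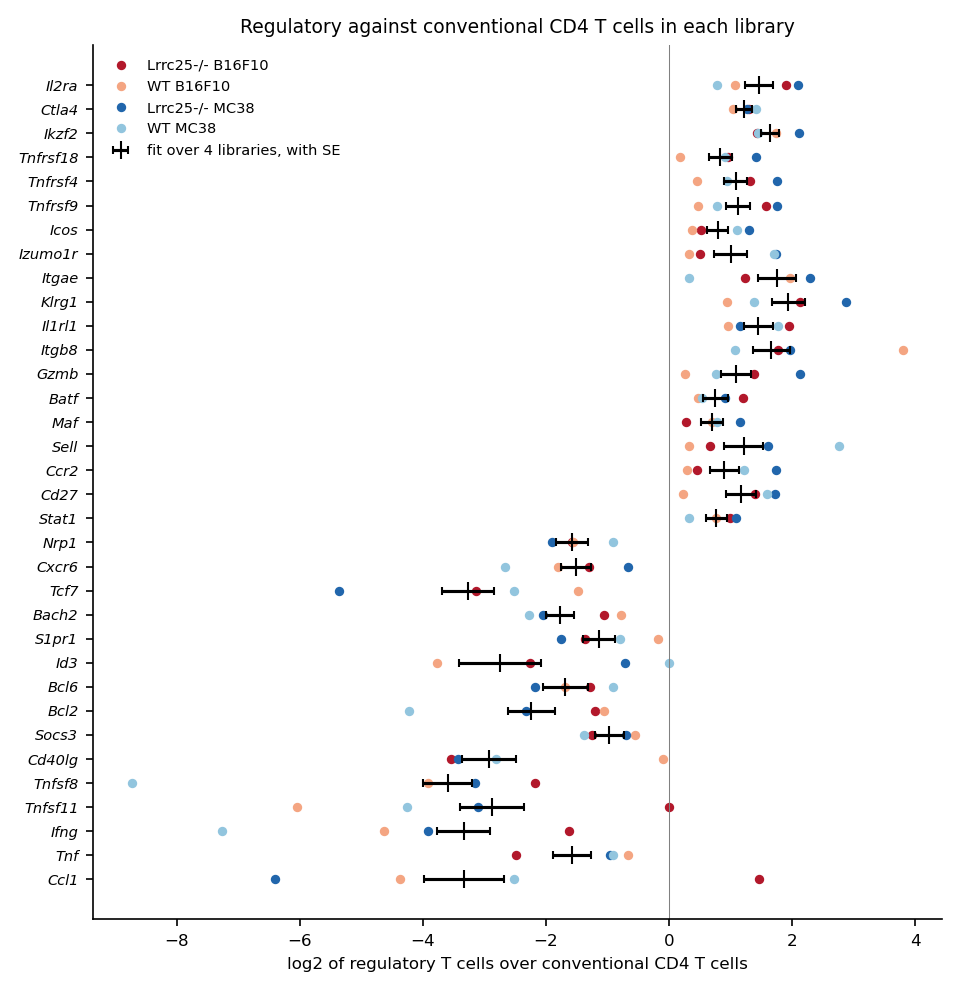
Log2 ratio of Tregs over conventional CD4 T cells for called genes of the lists after adding 1 CPM, with a colored point for each library and a black bar for edgeR's fitted log2 fold change with its SE. Il2ra, Ctla4, Ikzf2 and Klrg1 lie right of 0 and Nrp1, Tcf7 and Ifng left of it in all 4 libraries, whereas Ccl1 has its Lrrc25-/- B16F10 point on the other side.

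Against CD8 T cells the Treg program stood out more strongly. Of 9086 genes 465 were higher in Tregs (5.12%) and 495 lower (5.45%). Of 14 identity genes 11 were higher and 1 lower (median log2 2.06), and of 19 effector genes 14 were higher and 2 lower (median 1.53), beside a median of -0.03 over all genes. Il2ra, Ctla4 and Ikzf2 gave log2 fold changes of 2.64, 2.63 and 2.24, with adjusted p of 6.39e-07, 8.33e-07 and 1.27e-06 in edgeR. Itgb8 was at 1.08, 1.32, 0.625 and 2.76 CPM in CD8 T cells of the Lrrc25-/- B16F10, WT B16F10, Lrrc25-/- MC38 and WT MC38 pools (log2 6.08, adjusted p = 1.89e-06), and Il1rl1 at 2.44, 1.98, 3.96 and 4.70 CPM (log2 5.05, adjusted p = 3.27e-07). Lrrc32, which missed the threshold against conventional cells, gave 4.12 ± 0.574 (SE) and an adjusted p of 0.000356, and Izumo1r gave 3.93 with 2.38e-05. Ccr8 was also called here, with a log2 of 2.30 and an adjusted p of 0.00461; this call was lost without the Lrrc25-/- MC38 pool.

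Secreted products separated Tregs from CD8 T cells in both directions. Ebi3, a subunit of interleukin 35 and interleukin 27, measured 82.9, 74.1, 54.5 and 59.3 CPM in Tregs, against 13.5, 17.8, 5.83 and 5.25 CPM in CD8 T cells (log2 2.65, SE 0.259, adjusted p = 1.87e-05, edgeR). Areg, the repair factor amphiregulin, measured 153, 126, 664 and 375 CPM in Tregs, against 58.0, 39.6, 89.8 and 41.2 CPM (log2 2.21, SE 0.259, adjusted p = 8.27e-05, edgeR). Both were higher in every library, whereas Penk, the precursor of enkephalin peptides, was at 466, 215, 235 and 282 CPM in Tregs against 145, 324, 52.9 and 52.8 CPM, so the WT B16F10 pool ran the other way (log2 1.30, adjusted p = 0.0355). Gzmf, a granzyme of cytotoxic cells, measured 0, 0, 14.5 and 11.1 CPM in Tregs, against 64.5, 80.6, 2112 and 3515 CPM (log2 -7.78, adjusted p = 2.21e-09, edgeR), and the pore protein gene Prf1 15.6, 16.7, 25.5 and 22.2 CPM, against 70.7, 42.3, 334 and 521 CPM (log2 -3.26, adjusted p = 4.23e-05). Of 13 chemokine and cytokine genes 9 were lower and 1 higher, Xcl1 and Ifng with log2 values of -3.15 and -4.09 (adjusted p = 9.9e-06 and 2.12e-05). Inhibitory receptors split, with 3 of 12 higher, Ctla4 among them, and 4 lower, among them Lag3 (log2 -1.11, adjusted p = 0.00713) and Pdcd1 (log2 -1.21, adjusted p = 0.00092). The 960 calls against CD8 T cells came to 368 without the Lrrc25-/- MC38 pool and 491 without the WT MC38 pool; Lag3 lost its call without either and Penk without any of the pools but the WT B16F10 one.

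The genotype comparison asked what host Lrrc25 loss left in Tregs. Within each model a gene was measured when it had at least 50 CPM in either pool and 30 UMIs over both, and it was called when the CPM values differed at least 1.5-fold after a pseudocount of 1. In B16F10, 574 of 2813 genes were higher in Lrrc25-/- Tregs (20.4%) and 275 lower (9.78%). In MC38, 425 of 3882 were higher (10.9%) and 418 lower (10.8%). The balance depends on the scaling, since TMM factors gave 536 higher and 470 lower in B16F10 and 500 higher and 256 lower in MC38, with the median of all genes moving to -0.04 and 0.11, against 0.08 and -0.01 by totals. Of 2424 genes measured in both models, 80 were called higher in both, 20 lower in both and 48 in opposite directions. Among these 2424 genes, 531 were called higher and 137 lower in B16F10, and 215 higher and 183 lower in MC38. Whether the overlaps differ from what these numbers alone would give was not tested.

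Receptors of activated Tregs were among the genes higher in both Lrrc25-/- pools. Il2ra was 199 CPM in Lrrc25-/- and 106 CPM in WT Tregs of B16F10, a ratio of 1.88 (1.37 to 2.62), and 924 CPM in Lrrc25-/- and 534 CPM in WT Tregs of MC38, a ratio of 1.73 (1.43 to 2.10). Tnfrsf9 had a ratio of 2.10 (1.83 to 2.41) in B16F10, and in MC38 one of 1.56 (1.36 to 1.80), and Tnfrsf4 ratios of 1.53 (1.33 to 1.76) and 1.60 (1.40 to 1.85). After thinning, Il2ra was detected in 15.9% (8.98 to 25.2) of Lrrc25-/- and 9.80% (3.26 to 21.4) of WT Tregs of B16F10, with intervals that overlap. In MC38 it was detected in 62.2% (52.8 to 70.9) of Lrrc25-/- and 32.7% (19.9 to 47.5) of WT Tregs. Ctla4 and Ikzf2 were called higher in B16F10, with ratios of 1.56 (1.37 to 1.78) and 1.74 (1.48 to 2.05), beside Ctla4 levels of 1385 CPM in Lrrc25-/- and 1739 CPM in WT Tregs and Ikzf2 levels of 2284 CPM in Lrrc25-/- and 2573 CPM in WT Tregs of MC38. The calls for Tnfrsf4 and Ctla4 in B16F10 were lost when barcodes with over 1% of their UMIs from another cell type's markers (mixed barcodes) were left out, a setting chosen after the data were seen. Their log2 ratios were -0.05 and -0.59 when barcodes were thinned before the gate. The WT B16F10 pool then held 9 Tregs with 9000 UMIs in all, so these signs rest on few UMIs. With at least 2 Foxp3 UMIs the log2 ratio in MC38 was 0.30 for Il2ra (877 CPM in Lrrc25-/- and 711 CPM in WT Tregs) and 0.43 for Tnfrsf9, both under the 1.5-fold rule. The Tnfrsf9 call was also not kept in both models at once with the mean of per-cell CPM and with no C1q UMI allowed.

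Signal transducers of interleukin 2 and early genes of T cell activation were high in the same pools. Stat5b, the transcription factor downstream of interleukin 2, measured 95.4 CPM in Lrrc25-/- and 25.9 CPM in WT Tregs of B16F10 (ratio 3.68, 2.03 to 7.12) and 240 CPM in Lrrc25-/- and 148 CPM in WT Tregs of MC38 (ratio 1.62, 1.13 to 2.37). Its target Cish, a feedback inhibitor of cytokine signalling, measured 90.7 CPM in Lrrc25-/- and 46.3 CPM in WT Tregs of B16F10 (ratio 1.96, 1.21 to 3.27) and 162 CPM in Lrrc25-/- and 70.5 CPM in WT Tregs of MC38 (ratio 2.30, 1.39 to 3.99). Smad7, a feedback inhibitor of transforming growth factor beta signalling, measured 139 CPM in Lrrc25-/- and 48.1 CPM in WT Tregs of B16F10 (ratio 2.89) and 225 CPM in Lrrc25-/- and 130 CPM in WT Tregs of MC38 (ratio 1.74). Of the genes listed for interleukin 2 and STAT5, 7 of 9 measured were higher and none lower in B16F10 (median 0.71), and 6 of 11 higher and none lower in MC38 (median 0.59). Of early T cell receptor genes, 8 of 12 were higher in B16F10 (median 0.75) and 5 of 15 in MC38 (median 0.51), with none lower in either; Nr4a1 stood at 128 CPM in Lrrc25-/- and 79.6 CPM in WT Tregs of B16F10 and at 115 CPM in Lrrc25-/- and 40.8 CPM in WT Tregs of MC38. Its call in both models ended in 6 of 10 settings, among them without mixed barcodes and with at least 2 Foxp3 UMIs, where its log2 ratio in B16F10 was 0.09. The call in both models ended in 5 settings for Stat5b and 3 for Cish. Such a call also ended where the gene had too few UMIs to be measured in a setting.

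Suppressive and trafficking genes followed in part. Il10 was 53.2 CPM in Lrrc25-/- and 18.5 CPM in WT Tregs of B16F10, a ratio of 2.87 (1.39 to 6.51), and 67.3 CPM in Lrrc25-/- and 22.2 CPM in WT Tregs of MC38, a ratio of 3.02 (1.27 to 8.77); the B16F10 call was lost without mixed barcodes. Lag3, an inhibitory receptor, was 84.4 CPM in Lrrc25-/- and 31.5 CPM in WT Tregs of B16F10 (ratio 2.68, 1.53 to 4.93) and 113 CPM in Lrrc25-/- and 55.6 CPM in WT Tregs of MC38 (ratio 2.03, 1.14 to 3.84). The call in both models was kept in 5 of 10 settings for Il10 and in 7 for Lag3. For both genes it ended with no C1q UMI, with at least 2 Foxp3 UMIs and when thinned before the gate. Ccr7, the receptor that guides T cells to lymph nodes, had a ratio of 3.22 (2.54 to 4.11) in B16F10, and in MC38 one of 1.68 (1.25 to 2.29). Ccl5, a chemokine of activated T cells, had ratios of 6.32 (5.43 to 7.40) and 1.65 (1.33 to 2.05), and the membrane protein gene Ms4a4b ratios of 4.32 (2.55 to 7.75) and 3.29 (1.68 to 7.16). Ccl5 in B16F10 had a log2 ratio of 2.66, which was 2.03 without mixed barcodes, 1.95 with no C1q UMI, 1.87 with the mean of per-cell CPM and -0.69 when thinned before the gate. The WT pool held 8 Tregs with no C1q UMI, and 9 Tregs with 9000 UMIs when thinned. Ccr7 there had 1.68, and 1.22 without mixed barcodes. With the mean of per-cell CPM the MC38 ratios were under the 1.5-fold rule, at a log2 of 0.37 for Ccl5 and 0.18 for Ccr7.

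Some genes of the T cell as such were also higher in both Lrrc25-/- pools. The sum of the 3 CD3 genes, which the rule used, had a ratio of 1.29 (1.17 to 1.43) in B16F10, and in MC38 one of 1.35 (1.18 to 1.55), Cd52 ratios of 1.32 and 1.36, and Foxp3, which the rule used as well, ratios of 1.44 and 1.45. Trac had ratios of 1.09 (0.937 to 1.26) and 1.17 (0.965 to 1.43) and Trbc1 ratios of 1.14 (0.924 to 1.40) and 1.24 (0.932 to 1.68), all with intervals that include 1. Trbc2, Lck and Ptprc had ratios of 1.41, 1.84 and 1.51 in B16F10 with intervals above 1, and of 1.18 (0.946 to 1.48), 1.15 (0.817 to 1.65) and 1.04 (0.922 to 1.16) in MC38. Macrophage markers summed to 1387 CPM in Lrrc25-/- and 2443 CPM in WT Tregs of B16F10, but to 1415 CPM in Lrrc25-/- and 845 CPM in WT Tregs of MC38. The part of these levels in the other higher genes was not tested. Of the 80 genes higher in both models 64 kept both calls with TMM scaling, 45 without mixed barcodes, 26 with no C1q UMI allowed, 19 with at least 2 Foxp3 UMIs and 1 after thinning before the gate. A gene that was no longer measured counts as lost here. Of all genes, 1190 were measured in both models with no C1q UMI, 1664 with at least 2 Foxp3 UMIs and 172 when thinned, against 2424. Emb, Chd3, Smad7 and Ms4a4b kept their calls in 9 of 10 settings, all but thinning before the gate.

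**Figure D4:**
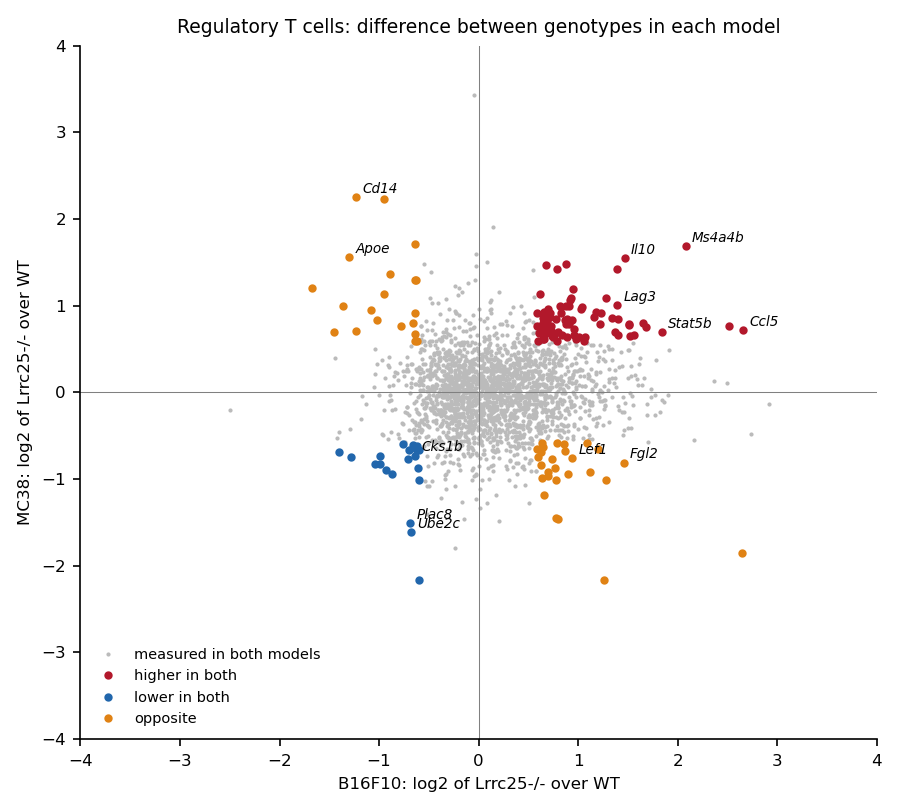
Log2 ratio of Lrrc25-/- over WT Tregs in B16F10 on the x axis and in MC38 on the y axis, with a point for each of 2424 genes measured in both models and 2 genes outside the limits of 4. Il10, Ms4a4b, Lag3, Stat5b and Ccl5 lie among the 80 genes called higher in both (red), Plac8 and Ube2c among the 20 lower in both (blue), and Cd14, Apoe and Fgl2 among the 48 called in opposite directions (orange).

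Other genes were called in 1 of the models, and the difference between models was not tested. In B16F10, genes of circulating and resting T cells were high in Lrrc25-/- Tregs. Klf2, which governs exit from tissue, measured 344 CPM in Lrrc25-/- and 75.9 CPM in WT Tregs, a ratio of 4.53 (3.23 to 6.49), and the homing receptor gene Cxcr4 90.7 and 18.5 CPM in Lrrc25-/- and WT Tregs, a ratio of 4.90 (2.48 to 10.7). Themis, a thymocyte signalling protein gene, had a ratio of 6.03 (2.72 to 15.8), and Gpr55, a lipid receptor gene, one of 7.18 (3.08 to 20.5). With at least 2 Foxp3 UMIs the ratios of Klf2 and Gpr55 fell outside these intervals, as did that of Klf2 with no C1q UMI allowed. These settings left 17 and 8 WT Tregs of B16F10. Of 8 resting T cell genes 7 were higher and none lower (median 0.94), and of 16 lineage transcription factors 13 were higher and none lower (median 0.82), Irf4 with a ratio of 3.98 (1.73 to 10.7). Of 14 glycolysis genes 5 were lower and none higher (median -0.55); Gapdh was at 2892 CPM in Lrrc25-/- and 4402 CPM in WT Tregs, a call that was lost without mixed barcodes, when 1 of 13 glycolysis genes was lower. With TMM scaling 9 of 15 were lower, with the mean of per-cell CPM 8 of 16, and with at least 2 Foxp3 UMIs 0 of 14, with 1 higher.

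RNA of other cell types moved with the B16F10 contrast. Melanoma markers summed to 253 CPM in Lrrc25-/- Tregs against 1744 CPM in WT Tregs of B16F10, with 6 of 6 measured markers lower, and Pmel alone was at 111 CPM in Lrrc25-/- and 794 CPM in WT Tregs. Stromal markers summed to 51.6 CPM in Lrrc25-/- and 885 CPM in WT Tregs, with Kdr at 0 in both. Neutrophil markers ran the other way, at 488 CPM in Lrrc25-/- and 206 CPM in WT Tregs, with Cxcr2 at 0 in both and 3 of 3 measured called higher (G0s2, S100a8 and S100a9); all 32 G0s2 UMIs of the Lrrc25-/- pool came from 1 cell. The part of this RNA in the genotype values was not tested. Single cells carried some of the steepest differences. Of the Jchain UMIs of WT Tregs 330 of 331 came from 1 cell, of Col1a1 242 of 243 and of Gzmc 368 of 373. Plcb1, a phospholipase, was different, at 4.69 CPM in Lrrc25-/- and 1039 CPM in WT Tregs with UMIs in 34 WT cells, and it was equally uneven in conventional cells (11.3 CPM in Lrrc25-/-, 1424 CPM in WT) and CD8 T cells (8.94 CPM in Lrrc25-/-, 740 CPM in WT) of B16F10, so it is no feature of Tregs.

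In MC38, proliferation genes were the group with the most lower members. Of 14 measured 10 were lower in Lrrc25-/- Tregs and none higher, with a median of -0.84. Mki67, the Ki-67 antigen of dividing cells, measured 258 CPM in Lrrc25-/- and 452 CPM in WT Tregs, a ratio of 0.571 (0.445 to 0.733). Top2a, a topoisomerase of replicating cells, measured 249 CPM in Lrrc25-/- and 456 CPM in WT Tregs, a ratio of 0.546 (0.425 to 0.702), and the ubiquitin-conjugating enzyme gene Ube2c 30.9 and 96.4 CPM in Lrrc25-/- and WT Tregs, a ratio of 0.321 (0.163 to 0.614). In B16F10, 1 of 18 was lower and none higher (median -0.06), Ube2c with a ratio of 0.621 (0.477 to 0.807). There 3 of 18 were lower with TMM scaling (median -0.15) and 4 of 15 with the mean of per-cell CPM (median -0.51). The list holds the 10 genes of the cycling call, so it is no separate evidence of the lower cycling share.

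Itgae was the steepest Treg-list gene in MC38, at 209 CPM in Lrrc25-/- and 18.5 CPM in WT Tregs, a ratio of 11.3 (4.70 to 35.4), with UMIs in 53 of 122 Lrrc25-/- cells. With no C1q UMI allowed the MC38 ratio of Itgae fell outside that interval. In B16F10 Itgae was at 50 CPM in Lrrc25-/- and 51.9 CPM in WT Tregs. The fit over all 4 Treg pools, given below, called it higher, but not without mixed barcodes or with at least 2 Foxp3 UMIs. Areg measured 664 CPM in Lrrc25-/- and 375 CPM in WT Tregs of MC38, a ratio of 1.77 (1.42 to 2.23). Its log2 was -0.12 when barcodes were thinned before the gate, which left 17 WT Tregs with 17000 UMIs. Plac8, a small cytosolic protein gene of activated lymphocytes, was lower at 136 CPM in Lrrc25-/- and 389 CPM in WT Tregs, a ratio of 0.350 (0.257 to 0.476), and was lower in B16F10 as well, with a ratio of 0.617. Its B16F10 call was lost without mixed barcodes. Ccl4, a chemokine, had 59 UMIs in 23 cells of the Lrrc25-/- MC38 pool and none in the WT pool, at least 9.64-fold higher against a floor of 3 counts. Il17a had 52 UMIs in 6 Lrrc25-/- cells and none in WT, of which 35 came from 1 cell. UMIs of the gamma-delta receptor genes Trdc, Trdv4, Tcrg-C1, Tcrg-C2 or Tcrg-C4 were found in 7 Lrrc25-/- Tregs of B16F10 and 7 of MC38, 4 of the 6 Il17a cells among them, and in 0 WT Tregs of either model. Of the whole gamma-delta marker list WT Tregs held 2 UMIs, both of Blk and in B16F10.

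**Figure D5:**
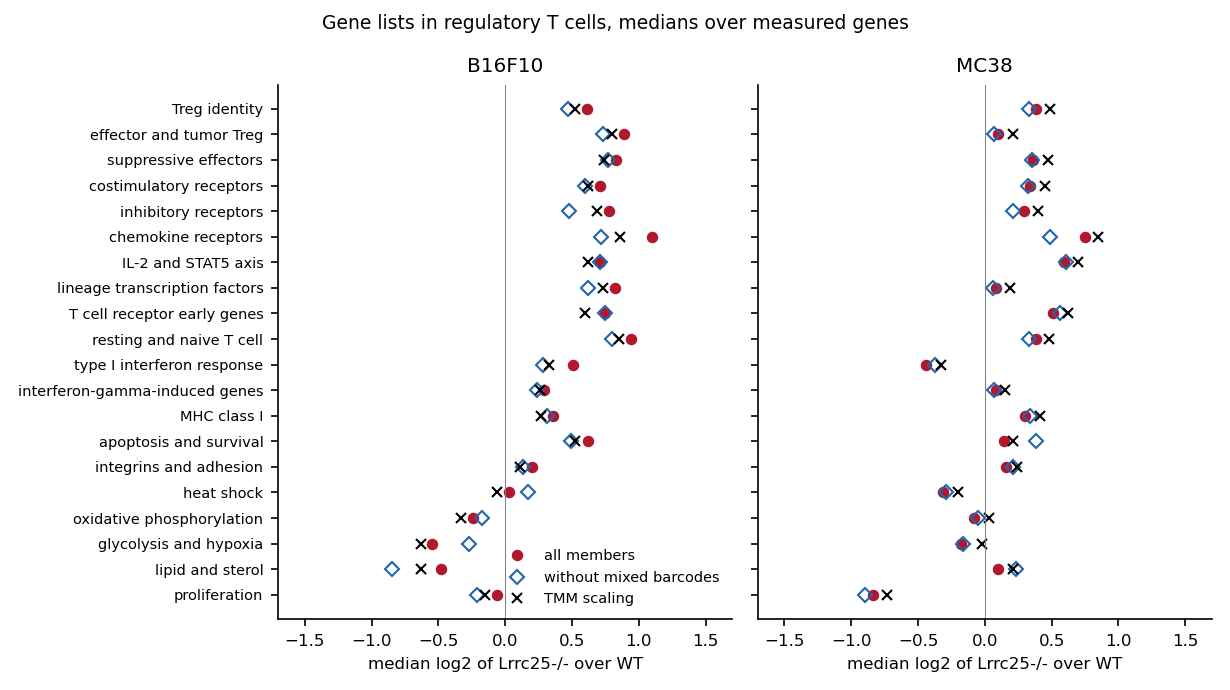
Median log2 ratio of Lrrc25-/- over WT Tregs for each gene list on the x axis, in B16F10 (left) and MC38 (right), from all Tregs (red), without mixed barcodes (blue) and with TMM scaling (crosses). Interleukin 2 and STAT5 genes lie above 0 in both models under all 3 settings, and proliferation genes lie lowest in MC38, at -0.84.

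The fit over all 4 Treg pools, with the tumor model as a second term, leaves 1 residual degree of freedom and called few genes, 8 of 6428 higher (0.124%) and 21 lower (0.327%) in Lrrc25-/- Tregs. The higher ones included Ms4a4b at 136 CPM in Lrrc25-/- and 31.5 CPM in WT Tregs of B16F10 and 122 and 37.1 CPM in Lrrc25-/- and WT Tregs of MC38 (log2 1.88, SE 0.357, adjusted p = 7.35e-05, edgeR). Mir155hg, the host transcript of the activation microRNA miR-155, gave a log2 of 2.01 (SE 0.484, adjusted p = 0.0109), Ccl5 1.67 (SE 0.304, adjusted p = 2.67e-05) and Ccr7 1.19 (SE 0.31, adjusted p = 0.0372), all in edgeR. Trdc, the constant region of the gamma-delta T cell receptor, had 34 UMIs in Lrrc25-/- and 0 in WT Tregs, at least 7.71-fold higher. The lower genes included 4 of the melanoma marker list (Dct, Mlana, Pmel and Tyrp1) and Col3a1 of the stromal list, and Plac8 gave a log2 of -1.14 (SE 0.302, adjusted p = 0.0395). Without mixed barcodes the calls for Plac8, Mir155hg and Ccr7 were lost. That for Plac8 was also lost without the highest Scrublet scores and with no C1q UMI allowed. Il2ra, with 0.81 ± 0.306 (SE) and an adjusted p of 0.44, and Stat5b, with 1.13 and 0.0589, were not called. DESeq2 called 0 genes (40 at an unadjusted p under 0.05) and edgeR without the filter on low counts 0 (514 at an unadjusted p under 0.05), so no genotype difference of Tregs held in both tools.

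Whether Tregs differed between genotypes otherwise than conventional CD4 T cells did was tested as an interaction. Of 7209 genes 4 had a higher genotype log2 in Tregs (0.0555%) and 8 a lower one (0.111%). Penk gave a difference of 2.36 (SE 0.275, adjusted p = 0.00501, edgeR), with 466 CPM in Lrrc25-/- and 215 CPM in WT Tregs of B16F10 and 235 and 282 CPM in Lrrc25-/- and WT Tregs of MC38, beside 225 and 651 CPM and 69.1 and 294 CPM in conventional cells in the same order. Il2ra, Tnfrsf9 and the other receptors above were not among the 12 genes, so their genotype difference is not shown to be particular to Tregs.

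Tregs of MC38 and B16F10 differed broadly, with 1472 of 6428 genes higher in MC38 (22.9%) and 1459 lower (22.7%). Tumor model, day, host sex and any difference in library preparation cannot be told apart here. Il2ra was at 924 and 534 CPM in Lrrc25-/- and WT Tregs of MC38, against 199 and 106 CPM in those of B16F10 (log2 1.73, SE 0.31, adjusted p = 5.6e-07, edgeR), and Ikzf2 at 2284 and 2573 CPM against 716 and 411 CPM (log2 1.60, SE 0.286, adjusted p = 5.14e-07, edgeR). Klrg1 gave a log2 of 1.66 (adjusted p = 2.14e-06) and Tigit 2.11 (adjusted p = 3.79e-06), and neither overlapped between models. Batf was lower, with 92.7 and 100 CPM in MC38 against 178 and 157 CPM in B16F10 (log2 -1.35, adjusted p = 7.73e-05). All 14 oxidative phosphorylation genes, 14 of 16 glycolysis genes and 8 of 13 heat shock genes were lower in MC38, Hspa1a with 0 and 11.1 CPM against 324 and 315 CPM.

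The model contrast followed gene length. Genes spanning under 10 kb had a median log2 of -1.01, with 56.9% called lower in MC38 and 1.85% higher, while those over 150 kb had a median of 1.37, with 70.1% called higher. Malat1, a long noncoding RNA kept in the nucleus, was at 12109 and 9563 CPM in Lrrc25-/- and WT Tregs of MC38, against 1443 and 1135 CPM in those of B16F10. Ikzf2, Il2ra and Klrg1 belong to this contrast and the part of the length pattern in their values was not tested. The genotype fit had medians of -0.11 and 0.10 in the same length classes, and the fit against conventional cells -0.01 and -0.06.

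A split of the Tregs by Ccr8 gave little. Ccr8 was detected in 9, 6, 18 and 5 Tregs of the Lrrc25-/- B16F10, WT B16F10, Lrrc25-/- MC38 and WT MC38 pools. Of 3705 genes 0 were higher in Ccr8-detected Tregs (0%) and 4 lower (0.108%), namely Gzmc, Cxcl2, Cxcl3 and Wfdc17, in edgeR, with 166 genes at an unadjusted p under 0.05 and 1 called by DESeq2. None of the 4 is on the Treg lists, and most Gzmc UMIs came from single cells. The count was 34, of which 4 were higher, without the Lrrc25-/- MC38 pool, 14 without the WT MC38 pool and 0 without the WT B16F10 pool.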

How the data were processed

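Single-cell 3' RNA libraries (SeekOne) of 4 pooled tumor samples were analysed from the deposited matrices. The authors deposited raw UMI counts per gene and barcode, without normalization, per the labels; the genome was mm10, per the submitters' processing notes, while for the aligner and cell caller the tool is not given in the sources used here. Positions came from GENCODE M21 (GRCm38), which held 32158 of the 32285 gene identifiers.

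The members and all gene lists were chosen with earlier results of these data known. Raw UMIs were summed over the Tregs, conventional CD4 T cells (at least 1 Cd4 UMI, no Foxp3 or CD8 UMI) and CD8 T cells (CD8 UMIs, no Foxp3 or Cd4 UMI) of each library and scaled to CPM, the sum over all genes being 1000000. Library totals were 122558030 UMIs (Lrrc25-/- B16F10), 138841749 (WT B16F10), 118098009 (Lrrc25-/- MC38) and 105338548 (WT MC38). Fits across genes used edgeR 4.0.16 (R 4.3.3) with quasi-likelihood tests, TMM scaling, filterByExpr and Benjamini-Hochberg adjustment at 0.05, and were tested on simulated data. Each SE printed is the size of the log2 fold change divided by the square root of the test's F statistic. It is not an error estimated apart from the test, and it can be too small where a class has few UMIs. Fits between classes had the library as a block, and 3 residual degrees of freedom. The genotype, model and interaction fits had 1. Each library is named as 1 replicate, and p-values measure the spread between these pools only. DESeq2 1.42.0 served as an alternative.

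Within a model, where no test is possible, ratios have exact conditional 95% intervals (Clopper-Pearson for shares), which cover counting error only; the 1.5-fold rule used a pseudocount of 1 CPM. A count of 0 was bounded at 3 counts. Scrublet (scanpy 1.11.5) thresholds called 0%, 2.07%, 0% and 0.00579% of barcodes in the Lrrc25-/- B16F10, WT B16F10, Lrrc25-/- MC38 and WT MC38 libraries, so the highest scores were marked at 0.5% per 1000 barcodes and removed only as an alternative. Genes named were the markers, list genes with at least 50 CPM in a Treg pool, the 10 called genes with the largest fold in each direction and genes called in both models, of which a selection is printed; antigen receptor segments, immunoglobulin and ribosomal genes were left out of naming. Alternatives were other scalings, filters, pseudocounts, gates and depths, and each library left out where a fit allowed it.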

Additional observations from a re-analysis of the deposited data

Results flagged for a closer look

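The genotype difference of Tregs departed from that of conventional CD4 T cells in 12 genes by the interaction term of edgeR (adjusted p under 0.05, 1 residual degree of freedom). The log2 difference was above 0 for Gzmc (9.41), Penk (2.36), Nkg7 (1.51) and AW112010 (1.37). It was below 0 for Jchain (-6.95), S100a8 (-5.32), Dct (-3.58), Ckb (-3.54), Slpi (-3.20), Ccl7 (-2.13), Ccl2 (-2.03) and Ifitm3 (-1.85). Among them S100a8 is on the neutrophil marker list and Dct on the melanoma list, and Jchain is known from plasma cells. In WT B16F10 Tregs 330 of 331 Jchain UMIs and 368 of 373 Gzmc UMIs came from 1 cell.

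In 48 of 2424 genes measured in both models the Lrrc25-/- Tregs were called higher in one model and lower in the other. The difference between models was not tested. Among the same 2424 genes 531 were called higher and 137 lower in B16F10, and 215 higher and 183 lower in MC38. Whether 48 differs from what these calls alone would give was not tested. Fgl2, which encodes a secreted immunosuppressive protein of Tregs, had a log2 ratio of 1.46 in B16F10 and -0.81 in MC38. Lef1, a factor of naive T cells, had 0.94 and -0.76, the interferon-induced gene Ifi203 0.70 and -0.97, and AA467197 1.26 and -2.17, each with B16F10 before MC38. Genes of macrophages ran the other way, with Apoe at -1.30 in B16F10 and 1.56 in MC38, Cd14 at -1.23 and 2.25, Fcer1g at -0.89 and 1.37, and Ccl2 at -1.67 and 1.20. The sums of the macrophage markers in Tregs followed the same order, at 1387 CPM in Lrrc25-/- and 2443 CPM in WT Tregs of B16F10 and at 1415 CPM in Lrrc25-/- and 845 CPM in WT Tregs of MC38. Gzmc, at -5.52 in B16F10 and 6.44 in MC38, rested on 1 cell in each model, with 383 of 401 UMIs in the Lrrc25-/- MC38 pool.

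Foxp3 was seen in CD8-gated T cells, which the Treg rule leaves out, with a share of 4.28% for the Lrrc25-/- pool and 10.2% for the WT pool of B16F10, and of 1.62% for the Lrrc25-/- pool and 2.29% for the WT pool of MC38. These lie above the shares in macrophage-gated barcodes of the same pools, which ran from 0.149% to 0.364%. In those CD8-gated barcodes Ctla4 was at 691, 513, 728 and 865 CPM and Ikzf2 at 423, 270, 1252 and 1484 CPM, against 151, 124, 241 and 166 CPM and 115, 96.5, 368 and 626 CPM in CD8-gated cells without Foxp3, in the same order of pools.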

How the results depend on the processing

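Counts of called genes moved by over 1.5 times as follows. Many settings also changed how many genes were tested, so that number is given beside the count. The causes were not tested beyond what a setting itself removes. The genotype fit (29 of 6428 genes tested) gave 0 of 15132 without the filter on low counts and 0 with DESeq2. It gave 19 of 6179 without the highest Scrublet scores and 6 of 5880 without mixed barcodes (a setting chosen after seeing the data). It gave 10 of 3374 with no C1q UMI, 3 of 3885 with at least 2 Foxp3 UMIs and 0 of 391 after thinning to 1000 UMIs before the gate. The model fit (2931 of 6428) gave 1667 of 15132 unfiltered and 1006 with DESeq2. It gave 1037 of 3374 with no C1q UMI, 1681 of 3885 with at least 2 Foxp3 UMIs and 149 of 391 thinned. The fit against conventional cells (267 of 7209) gave 478 of 16696 unfiltered, 132 with DESeq2, 163 of 3696 with no C1q UMI and 27 of 769 thinned. Without each library in turn it gave 124 of 6415 to 329 of 7072. The fit against CD8 T cells (960 of 9086) gave 634 with DESeq2, 593 of 5915 with no C1q UMI and 309 of 2131 thinned. Without each library it gave 368 to 1230, with 368 of 8614 without Lrrc25-/- MC38 and 491 of 8500 without WT MC38. The interaction (12 of 7209) gave 92 with DESeq2 size factors, 88 of 16696 unfiltered and 2 with DESeq2. It gave 98 of 6781 without high Scrublet scores, 28 of 5897 without mixed barcodes and 4 of 769 thinned. The Ccr8 split (4 of 3705) gave 39 of 15131 unfiltered, 1 with DESeq2 and 12 of 3327 without high Scrublet scores. It gave 2 of 3251 without mixed barcodes and 2 of 925 with no C1q UMI. Without each library it gave 0 of 3460 to 34 of 3151, and its thinned fit was not run, since too few cells remained. The 1.5-fold rule called 849 of 2813 measured genes in B16F10 and 843 of 3882 in MC38. With 10 UMIs as the only filter it gave 2946 of 7709 and 2427 of 7582, and thinned 52 of 185 and 92 of 371. In B16F10 it gave 468 of 1309 with no C1q UMI and 561 of 1933 with at least 2 Foxp3 UMIs. The B16F10 share ratios were 1.43 of T-gated, 1.67 of CD8-negative and 2.74 of all barcodes when thinned, and 1.78, 1.89 and 4.18 with no C1q UMI. The MC38 ratio of all barcodes with no C1q UMI was 1.77. The WT B16F10 pool held 9 Tregs when thinned and 8 with no C1q UMI, so every B16F10 value in these settings rests on few cells. Signs turned for Ccl5 thinned (-0.35), Tyrp1 with at least 2 Foxp3 UMIs (0.08) and Sparc without mixed barcodes (0.34) in the genotype fit, and in the interaction for Jchain (0.36 without high Scrublet scores, 0.03 with no C1q UMI), Slpi (0.67 without mixed barcodes, 1.23 with no C1q UMI) and Ccl7 (1.21 with no C1q UMI). Within models they turned when thinned for Tnfrsf4 (-0.05), Ctla4 (-0.59) and Ccl5 (-0.69) of B16F10 and Areg (-0.12) of MC38, and for Kdm6b of B16F10 with at least 2 Foxp3 UMIs (-0.36). The thinned WT pools held 9000 UMIs in B16F10 and 17000 in MC38, and no interval was computed for these ratios. The genotype, model and interaction fits could not be refitted without a library, having no residual degree of freedom left. No paired analysis was possible because each genotype and model has 1 library and replicate numbers only name it. With 50 to 122 Tregs per pool, genes under about 50 CPM rest on few UMIs.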
